A study of Amphimedon queenslandica and Mnemiopsis leidyi and Nematostella vectensis with 36 samples.

Results

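NRF shared 910 places in the genome of the marine sponge Amphimedon queenslandica with 1 or 2 of 4 other transcription factors, YY1, EGR, GLI and SP41. These 910 regions, called members, are 45.6% of the 1997 regions with an NRF peak, which in turn are 3.81% of the 52356 regions in all. A region is a stretch in which peaks of the 16 deposited lists share at least 1 bp, from list to list. The members were chosen from the measured peaks themselves: a member holds at least 1 NRF peak and peaks of exactly 1 or 2 partners, counting full length protein, DNA binding domain (DBD) and both kinds of DNA together. Of the other NRF regions, 208 held 3 or 4 partners and 879 held none.

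The peaks come from DAP-seq, in which sheared and adapter-ligated genomic DNA is mixed with a factor carrying the HaloTag, a tag by which the protein is pulled out, and the DNA that the factor holds is sequenced. The proteins were NRF, YY1 and SP41, each as DBD and as full length protein, and EGR and GLI as DBD only, all made by in vitro translation. SP41 is written SP in part of the labels. Each of these 8 constructs had 1 library on amplified DNA (ampDAP-seq) and 1 on native DNA (DAP-seq), and was set against the library of HaloTag without a factor made on that DNA. All used DNA of larvae that had been swimming for 0 h, from individuals of Heron Island, sheared to a mean of 200 bp. Amplified DNA had been copied by 11 cycles of PCR before the binding step, which does not copy cytosine methylation, and all libraries had 20 cycles after it. The binding was done in a test tube on naked DNA, so it shows neither chromatin nor which factors a sponge cell contains. The other 20 samples of the series, 2 of which are those controls, were not analysed here on their own.

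NRF of the sponge is related to nuclear respiratory factor 1 of vertebrates, which binds a palindromic, CpG-rich sequence in the promoters of genes for mitochondrial and housekeeping functions and binds poorly where that sequence is methylated. YY1 is a zinc finger protein that can activate or repress promoters, EGR proteins are zinc finger factors switched on quickly by growth signals, GLI proteins carry the Hedgehog signal to its target genes, and SP proteins bind GC boxes in many promoters. These roles are known from vertebrates and are background here.

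The libraries held 2161903 to 3168602 usable fragments. There was 1 library for each construct and kind of DNA, so no difference between lists could be set against replicate error, and regions of 1 library are not replicates. Differences are therefore described and not tested. Intervals in brackets are 95% Wilson intervals for shares and intervals from binomial order statistics for medians, and both cover counting error only. Fold enrichment, the pileup at the summit over the local background from the control, and −log10 q are the authors' values per peak. They describe and rank peaks within a list and are not on a common scale between lists. Positions are on contigs numbered as in the deposited lists, the genome build is not stated in the labels or headers, and no sequence or gene annotation was used here.

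YY1 and SP41 were the most frequent partners. YY1 had a peak in 459 members, 50.4% (47.2 to 53.7), and SP41 in 406, 44.6% (41.4 to 47.9). GLI was in 209 members, 23.0% (20.4 to 25.8), and EGR in 157, 17.3% (14.9 to 19.8). Over all 52356 regions, 44.5% held a YY1 peak, 44.7% an SP41 peak, 21.6% a GLI peak and 25.9% an EGR peak. Over all NRF regions these shares were 30.4% for YY1, 30.4% for SP41, 17.7% for GLI and 16.8% for EGR. The rule used these peaks, so the shares describe the make-up of the set and nothing is read from them.

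Most members, 589, had a single partner and 321 had a pair. YY1 alone made up 275 members, SP41 alone 166, GLI alone 96 and EGR alone 52. The commonest pair was YY1 with SP41, in 110 members, followed by EGR with SP41 in 73, GLI with SP41 in 57 and YY1 with GLI in 49. YY1 with EGR was found in 25 members and EGR with GLI in 7. YY1 was thus mostly met alone, with 40.1% of its members in a pair, whereas 54.1% of GLI, 59.1% of SP41 and 66.9% of EGR members were in a pair. Among all regions of each partner, 28.9% of those of YY1 held another factor, against 55.9% for GLI, 55.3% for SP41 and 72.3% for EGR, so YY1 was the least and EGR the most often joined factor there as well.

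**Figure D1:**
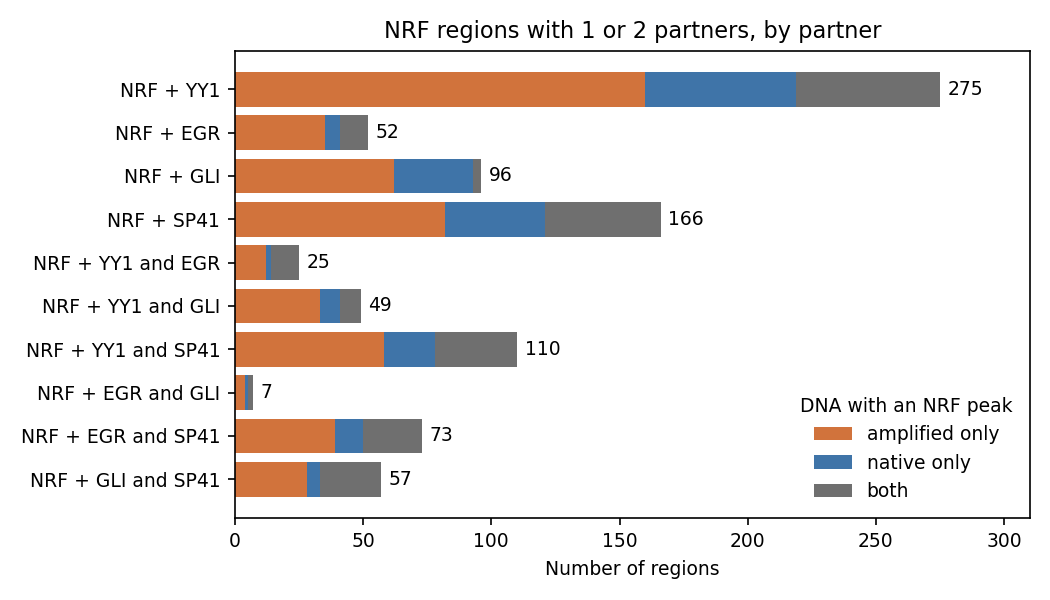
Number of members (x axis) for each single partner and pair of partners (y axis). Colours show whether the NRF peaks lay on amplified DNA only, native DNA only or both. YY1 alone is the longest bar with 275 regions, EGR with GLI the shortest with 7, and GLI alone has only 3 regions with NRF on both kinds of DNA.

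The first comparison was between NRF binding on amplified and on native DNA in these regions. NRF was most often held on amplified DNA alone, an order that rests on 1 library: without the NRF full length list on amplified DNA, 26.7% of the members left had NRF on amplified DNA only and 20.1% on both, so native DNA only was the commonest class. With all lists, 513 members, 56.4% (53.1 to 59.6), had NRF peaks on amplified DNA only, 182, 20.0% (17.5 to 22.7), on native DNA only and 215, 23.6% (21.0 to 26.5), on both. Over all NRF regions the shares were 59.9% on amplified only, 19.6% on native only and 20.4% on both. In NRF regions without a partner they were 65.4% (62.2 to 68.5), 20.1% (17.6 to 22.9) and 14.4% (12.3 to 16.9) in the same order. The share with NRF on both kinds of DNA was 19.5% (16.5 to 22.9) in members with 1 partner and 31.2% (26.3 to 36.4) in members with 2, and 31.7% (25.8 to 38.3) in regions with 3 or 4. The intervals of 1 and of 2 partners do not overlap, while those of 2 and of 3 or 4 do. More or longer NRF peaks in a region leave more room for a further partner under the rule. In members, the median length of NRF full length peaks on amplified DNA was 224 bp with NRF on both kinds of DNA and 170.5 bp on 1 kind. The difference by number of partners is therefore partly built in, and how far was not tested.

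The partner sets differed in the kind of DNA on which NRF was found. GLI alone stood at one end, with NRF on amplified DNA only in 62 of its 96 members, on native DNA only in 31 and on both in 3, which is 3.12% (1.07 to 8.79). SP41 alone had NRF on both in 45 of 166, 27.1% (20.9 to 34.3), YY1 alone in 56 of 275, 20.4% (16.03 to 25.5), and EGR alone in 11 of 52, 21.2% (12.2 to 34.0). Where GLI was joined by SP41, NRF was on both kinds of DNA in 24 of 57 members, 42.1% (30.2 to 55.0). With YY1 and GLI it was so in 8 of 49, 16.3% (8.51 to 29.0), and with EGR and GLI in 28.6% (8.22 to 64.1). The pairs without GLI had 44.0% (26.7 to 62.9) for YY1 with EGR, 31.5% (22.0 to 42.9) for EGR with SP41 and 29.1% (21.4 to 38.2) for YY1 with SP41. The intervals of GLI alone and of GLI with SP41 do not overlap, while those of GLI alone and of YY1 with GLI do.

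The NRF lists contributed unequally. NRF DBD had a peak in 255 members on amplified and 168 on native DNA, and NRF full length in 644 on amplified and 382 on native DNA. In whole lists the numbers of peaks were 501 and 335 for the DBD and 1439 and 769 for the full length protein. Members therefore took 50.9% of the NRF DBD peaks on amplified DNA and 50.1% of those on native DNA, and 44.8% and 49.7% of the full length peaks. The NRF full length list on amplified DNA carried much of the set: without it 543 members were left.

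Most members rested on a single NRF library. NRF had a peak in 1 of its 4 lists in 623 members, 68.5% (65.4 to 71.4), in 2 lists in 128, in 3 in 66 and in all 4 in 93, which is 10.2% (8.42 to 12.4). In NRF regions without a partner, 678 of 879 rested on 1 list, and 38, 4.32% (3.17 to 5.88), were in all 4. The full length protein alone was found in 584 members, both constructs in 239 and the DBD alone in 87. The commonest pattern was full length on amplified DNA alone, in 367 members, and the next was full length on native DNA alone, in 169. The DBD was rarely found alone on native DNA, in 7 members, and on amplified DNA in 80. GLI alone had 87 of 96 members with a single NRF list, YY1 alone 199 of 275, SP41 alone 110 of 166 and EGR alone 33 of 52. NRF was in all 4 lists in 2 members of GLI alone, 1 of EGR alone, 16 of YY1 alone and 22 of SP41 alone. A low share in all 4 lists was thus not particular to GLI. GLI with SP41 had the highest share of the partner sets, with 18 of 57 in all 4, 31.6% (21.0 to 44.5).

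**Figure D2:**
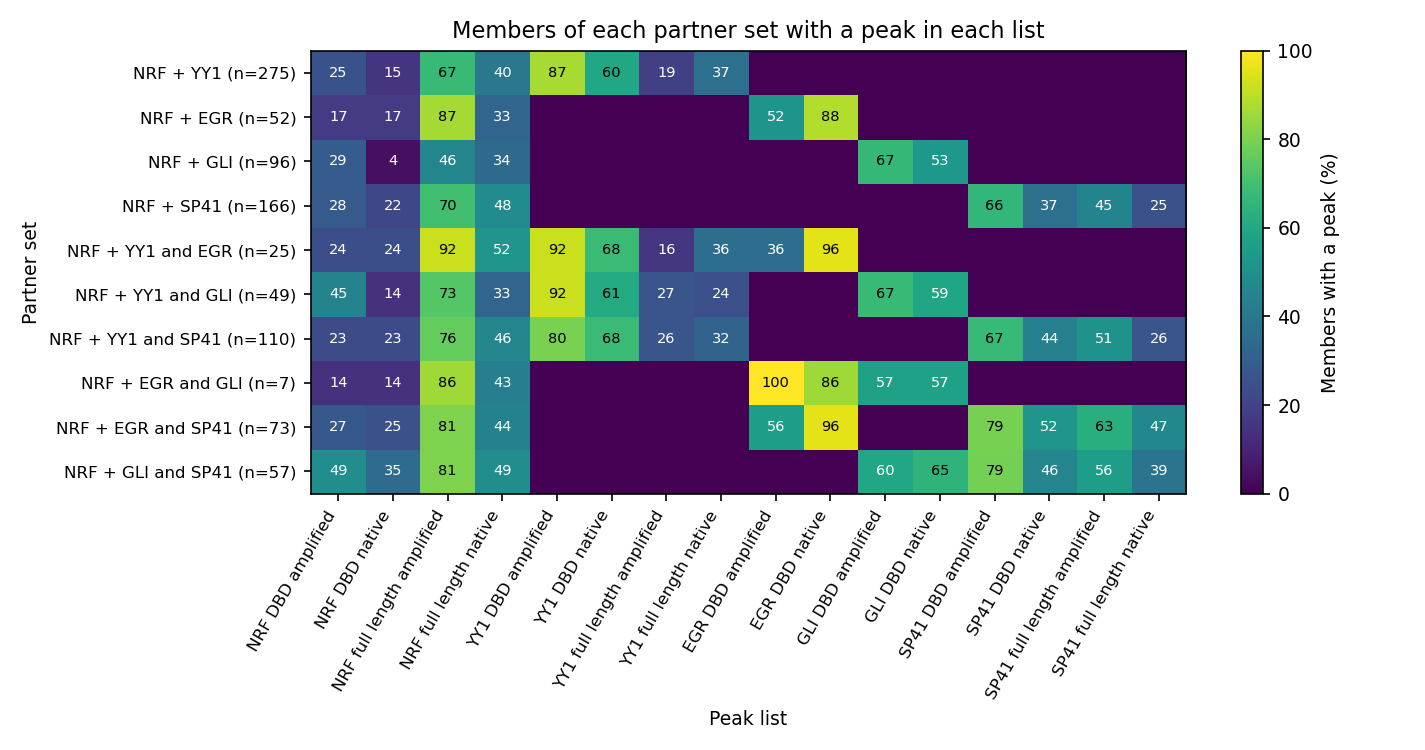
Percentage of the members of each partner set (rows, with n) that held a peak in each of the 16 lists (columns). Colour and number give the percentage, and the dark cells with no number are fixed at 0 by the rule. NRF full length on amplified DNA is the fullest NRF column in all 10 sets, and GLI alone is the set with the lowest share, 4.17%, of NRF DBD peaks on native DNA.

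The second comparison set the kind of DNA of each partner's peaks against that of NRF. Each of the 4 partners was found on a single kind of DNA in a larger share of members when NRF was on that kind only than when NRF was on the other kind only. For EGR this rests on few regions, and it was seldom on amplified DNA alone in any class. Among members with NRF on amplified DNA only, GLI was on amplified DNA only in 76 of 127, 59.8% (51.1 to 68.0), and on native DNA only in 23. Among members with NRF on native DNA only, GLI was on amplified DNA only in 5 of 45 and on native DNA only in 31, 68.9% (54.3 to 80.5). Over all GLI regions, 22.7% were on amplified DNA only, 57.4% on native DNA only and 19.9% on both.

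SP41 went the same way. With NRF on amplified DNA only it was on amplified DNA only in 127 of 207 members, 61.4% (54.6 to 67.7), and on native DNA only in 11. With NRF on native DNA only it was on amplified DNA only in 10 of 75 and on native DNA only in 34, 45.3% (34.6 to 56.6). Over all SP41 regions the shares were 40.6% on amplified only, 17.5% on native only and 41.9% on both, and over SP41 regions that hold 2 or 3 factors without NRF 32.6%, 14.5% and 53.0% in the same order.

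YY1 was on both kinds of DNA in most of its members, whatever NRF did. It was on both in 268 of 459, 58.4% (53.8 to 62.8), against 51.99% (50.7 to 53.3) of the YY1 regions that hold 2 or 3 factors without NRF and 42.2% of all YY1 regions. With NRF on amplified DNA only, YY1 was on amplified DNA only in 108 of 263 members and on native DNA only in 9. With NRF on native DNA only, it was on amplified DNA only in 10 of 89 and on native DNA only in 27. Over all YY1 regions, 38.2% were on amplified DNA only and 19.6% on native DNA only.

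EGR was seldom found on amplified DNA alone. Where NRF was on amplified DNA only, EGR was on amplified DNA only in 8 of 90 members, 8.89% (4.57 to 16.6), on native DNA only in 36 and on both in 46. With NRF on native DNA only, EGR was on amplified DNA only in 0 of 20 members, which allows a share of up to 16.1% by the Wilson interval, and on native DNA only in 14, 70.0% (48.1 to 85.5). Over all EGR regions 6.45% were on amplified DNA only, 54.2% on native DNA only and 39.4% on both.

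**Figure D3:**
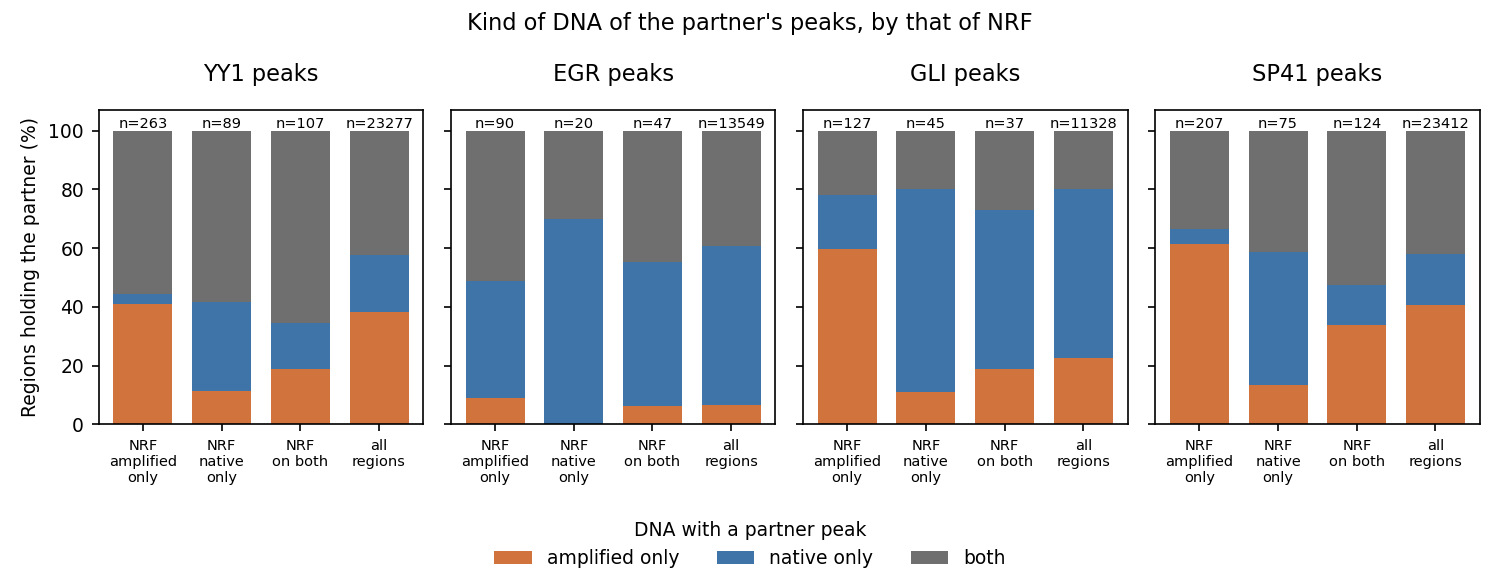
Share of regions (y axis, %) in which the partner's peaks were on amplified DNA only, native DNA only or both, for each partner (panels). The first 3 bars are members with NRF on amplified DNA only, native DNA only and both, and the last bar is all regions of the partner, with n above. GLI on amplified DNA only makes up 59.8% of the first GLI bar and 11.1% of the second, whereas EGR on amplified DNA only makes up 8.89% and 0%.

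A partner and NRF had peaks on the same kind of DNA in 850 of the 910 members, 93.4% (91.6 to 94.8). They were together on amplified DNA in 658 members and on native DNA in 337, with 145 of these counted in both. These shares depend on how often each factor is found on each kind of DNA, and the share without any association was not computed, so neither their size nor their order between partners is read as a link to NRF. By partner, the share with NRF on the same kind of DNA was 95.9% (93.6 to 97.3) for YY1, 94.8% (92.2 to 96.6) for SP41, 86.6% (81.3 to 90.6) for GLI and 77.1% (69.9 to 83.0) for EGR. The EGR members without a common DNA, 36 in all, had NRF on amplified DNA only and EGR on native DNA only, and the opposite arrangement occurred in 0 of 157. The 8 lists of a kind of DNA were called against 1 control library, so peaks of different factors on the same DNA are not independent of each other. Without the YY1 DBD list on amplified DNA the share on the same kind of DNA was 85.9%, and without both YY1 lists on native DNA, whose headers carry another run letter than the rest, it was 90.0%.

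The third comparison was between the constructs of the partners. YY1 in members was held by the DBD only in 270 of 459 cases, 58.8% (54.3 to 63.2), by the full length protein only in 17 and by both in 172, 37.5% (33.2 to 42.0). Over all YY1 regions the DBD alone held 79.1% (78.5 to 79.6) and both constructs 17.3% (16.8 to 17.7). The members thus took 6.23% of the YY1 full length peaks on amplified DNA and 3.49% of those on native DNA, against 2.12% and 2.21% of the YY1 DBD peaks. Only 28.9% of all YY1 regions held another factor, and constructs were not counted in such regions without NRF. The difference is therefore not read as particular to members. For SP41 the shares in all regions lay within the intervals of the members: the DBD alone held 41.4% (36.7 to 46.2) of its members and 42.8% of all its regions, and both constructs held 42.9% (38.1 to 47.7) and 41.0%. In members with NRF on both kinds of DNA, SP41 was held by both constructs in 68 of 124, 54.8% (46.1 to 63.3), against 22 of 75, 29.3% (20.2 to 40.4), where NRF was on native DNA only.

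The rule bounds the distance between summits, since it joins peaks that overlap, and no distance for overlapping peaks in general was set beside it. The nearest NRF and partner summits lay a median of 26 bp apart (23 to 29, n = 910), with quartiles of 8 and 66.8 bp. They were at the same base in 40 members, within 20 bp in 402, within 50 bp in 629, 69.1% (66.0 to 72.0), and more than 200 bp apart in 33. The medians were 30 bp (26 to 33) for YY1, 30 bp (24 to 42) for EGR, 30 bp (26 to 42) for GLI and 36 bp (28 to 42) for SP41, and their intervals overlap. The fragment lengths in the headers were 133 to 147 bp. Whether the sites adjoin or coincide was not tested, and no sequence was used here.

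NRF summits of different libraries were set against each other in the members where both lists had a peak. The partner distances were not computed for those members apart, so the distances are not compared. In members with NRF full length peaks on both kinds of DNA, the amplified and native summits lay a median of 6 bp apart (quartiles 2 and 13.5, n = 203). NRF DBD and full length summits were a median of 8 bp apart on amplified DNA (quartiles 3 and 13.5, n = 171) and 6 bp on native DNA (3 and 13, n = 153). The nearest partner summit is the best of several pairs in most members. For the best ranked NRF peak and the best ranked partner peak, the median distance was 42 bp (38 to 47) for YY1, 41 bp (30 to 49) for EGR, 39 bp (30 to 52) for GLI and 49 bp (42 to 59) for SP41.

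Where NRF and the partner were on the same kind of DNA, the nearest summits were closer on amplified than on native DNA for all 4 partners. The medians on amplified and native DNA were 32 bp (27 to 35, n = 344) and 42 bp (33 to 54, n = 166) for YY1, and 38 bp (30 to 46, n = 303) and 53 bp (38 to 71, n = 147) for SP41. For GLI they were 29 bp (23 to 42, n = 121) and 53 bp (27 to 84, n = 70), and for EGR 27.5 bp (21 to 37, n = 78) and 46 bp (30 to 59, n = 64). In each case the intervals of amplified and native DNA overlap. Longer peaks allow larger distances under the rule. Median NRF peak lengths in members were 181 bp on amplified and 213 bp on native DNA for the DBD, and 193 and 204 bp for the full length protein. EGR, GLI and SP41 peaks in members were also longer on native DNA, and those of both YY1 constructs shorter. The part of length was not tested.

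**Figure D4:**
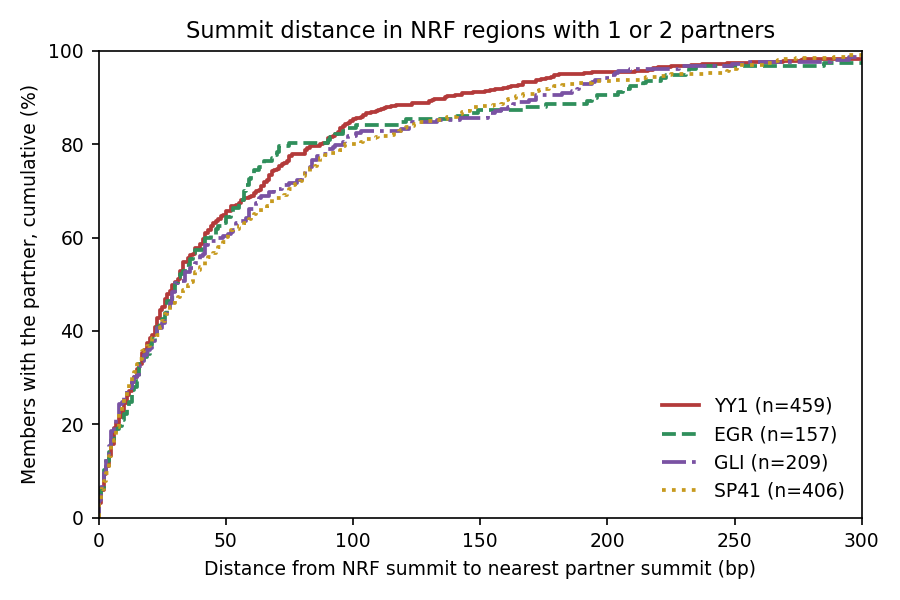
Cumulative share of members (y axis, %) by the distance from an NRF summit to the nearest summit of the partner (x axis, bp, shown to 300 bp), with a line for each partner. The lines rise together, and 60.1% (SP41) to 65.8% (YY1) of members lie within 50 bp.

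In all members an NRF peak overlapped a peak of at least 1 partner directly. An NRF peak shared at least 1 bp with a peak of the partner in 455 of 459 YY1, 150 of 157 EGR, 204 of 209 GLI and 400 of 406 SP41 cases, and the others were the second partner of a pair and joined through another peak. At least 50% of the shorter peak was shared in 91.3% of YY1, 89.2% of SP41, 87.1% of GLI and 84.7% of EGR cases. Just inside the limit of the rule, 13 members had NRF peaks that shared 1 to 25 bp with a partner at most. Just outside it, 17 NRF regions without a partner lay within 25 bp of a region of another factor.

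The fourth comparison was between NRF peak strength in members and in other NRF regions. In each NRF list, a larger share of the peaks in members with 2 partners than in members with 1 was among the strongest of the list by −log10 q. The strongest 25% of the NRF DBD list on amplified DNA took in 39 of the 102 peaks in members with 2 partners, 38.2% (29.4 to 47.9), 28 of 153 in members with 1, 18.3% (12.98 to 25.2), and 30 of 180 in regions without a partner, 16.7% (11.9 to 22.8). For NRF full length on amplified DNA the shares were 35.0% (29.4 to 41.1), 23.8% (19.8 to 28.2) and 19.1% (16.2 to 22.3) in the same order. On native DNA they were 35.1% (25.3 to 46.2), 20.9% (13.8 to 30.3) and 11.9% (7.10 to 19.3) for the DBD, and 37.8% (30.2 to 45.9), 19.7% (15.1 to 25.2) and 15.9% (12.2 to 20.6) for the full length protein. In all 4 lists the intervals of members with 2 partners and of regions without a partner do not overlap. Regions with 3 or 4 partners had shares of 42.4% (31.2 to 54.4) for the DBD and 35.0% (28.0 to 42.7) for the full length protein on amplified DNA, and 41.4% (29.6 to 54.2) and 45.9% (36.4 to 55.8) on native DNA. Their intervals overlap those of members with 2 partners in every list.

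Fold enrichment showed this less clearly than the ranking by −log10 q. For NRF full length on amplified DNA the median fold was 7.87 (5.82 to 9.20) in members with 2 partners, 6.98 (6.14 to 7.65) with 1 and 7.96 (7.55 to 8.30) without a partner. For NRF DBD on native DNA it was 9.22 (8.22 to 11.4), 7.80 (6.70 to 8.86) and 7.01 (6.35 to 8.03), and for NRF full length on native DNA 5.10 (4.62 to 6.17), 3.95 (3.80 to 4.22) and 3.99 (3.75 to 4.36). For NRF DBD on amplified DNA it was 6.32 (5.54 to 7.08), 4.66 (4.32 to 5.18) and 5.02 (4.63 to 5.77). In regions with 3 or 4 partners the medians were 5.42 (4.11 to 6.78) for the DBD and 7.21 (6.06 to 9.20) for the full length protein on amplified DNA, and 9.02 (7.61 to 11.4) and 5.75 (4.44 to 7.61) on native DNA. The local background, taken as pileup over fold enrichment, moved with the number of partners in most NRF lists. For NRF full length on amplified DNA its median was 6.97 fragments in members with 2 partners, 5.80 with 1 and 4.13 without a partner. For the DBD on amplified DNA it was 6.80, 5.20 and 4.72. On native DNA it was 5.68, 5.63 and 5.25 for the full length protein. For the DBD on native DNA it was 5.55, 5.19 and 5.37, so there it was lower with 1 partner than without. In regions with 3 or 4 partners it was 8.49 for the full length protein on amplified DNA, and on native DNA 6.90 for the DBD and 6.47 for the longer construct. A higher background gives a higher −log10 q at the same fold, and its part in the ranking was not tested. NRF peaks with 2 partners were also longer. Median lengths with 2, 1 and no partner were 196.5, 175 and 167.5 bp for the DBD on amplified DNA. They were 200.5, 185 and 175 bp for the full length protein. On native DNA they were 229, 205 and 191 bp, and 210, 195 and 184 bp. A longer peak overlaps others more easily under the rule, and the part of length was not tested.

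**Figure D5:**
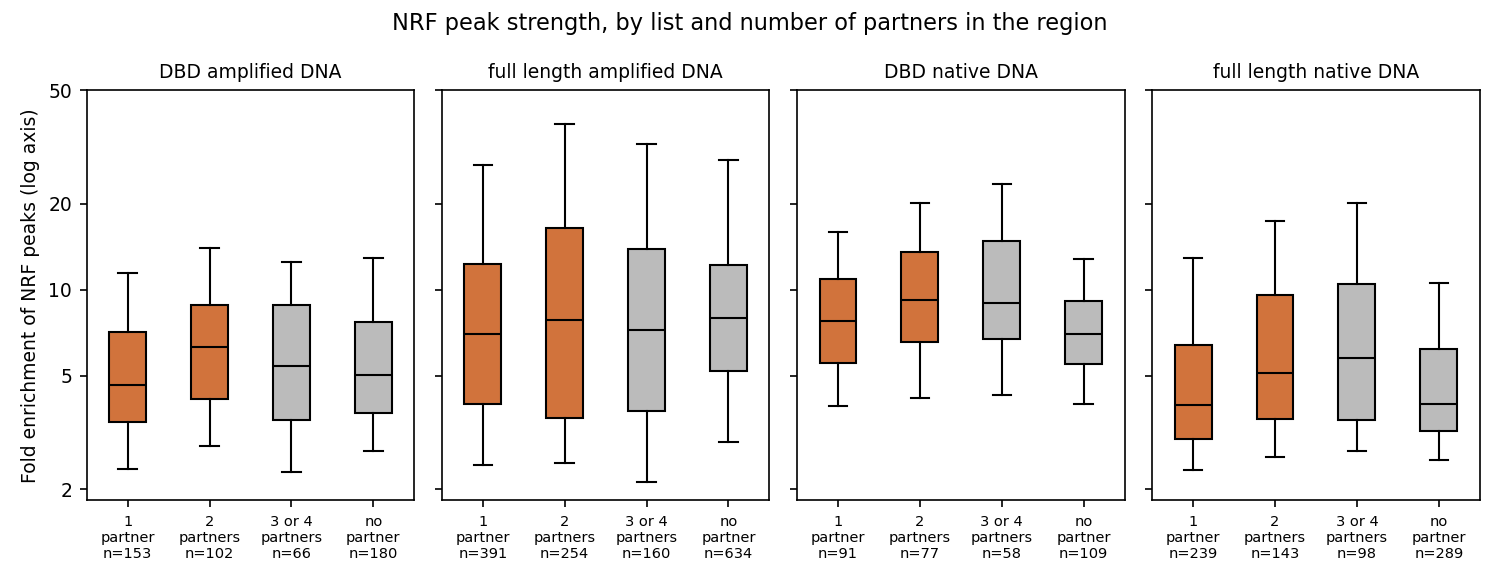
Fold enrichment of NRF peaks (y axis, log scale) in the 4 NRF lists (panels), for members with 1 and 2 partners and for regions with 3 or 4 partners and with none. Boxes span the quartiles with the median as a line, and whiskers run from the 5th to the 95th percentile. The boxes overlap in every panel, and the medians for NRF full length on amplified DNA lie between 6.98 and 7.96.

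NRF peaks were stronger where NRF was called on both kinds of DNA. The classes follow from the same cutoff, since a weak peak is less often called in a further list. This contrast is therefore partly built in, and how far was not tested. In members with NRF on both kinds of DNA the median fold of NRF full length on amplified DNA was 13.4 (12.0 to 15.3, 211 peaks), against 4.81 (4.49 to 5.32, 434 peaks) where NRF was on 1 kind only. On native DNA the same medians were 7.05 (6.25 to 8.10, 207 peaks) and 3.27 (3.07 to 3.45, 175 peaks). Of those 175 peaks on native DNA only, 1 was among the strongest 25% of its list. Among the single partners, GLI had the lowest medians for NRF full length, 4.29 (3.59 to 4.81, 45 peaks) on amplified and 3.08 (2.88 to 3.68, 33 peaks) on native DNA. The next lowest were SP41 on amplified DNA, 7.09 (5.01 to 9.83, 116 peaks), and YY1 on native DNA, 3.95 (3.55 to 4.28, 109 peaks), whose interval overlaps that of GLI. Across members with both lists, fold enrichment had a Spearman correlation of 0.90 between NRF DBD and full length on amplified DNA (n = 171), 0.85 on native DNA (n = 153), and 0.68 between amplified and native DNA for the full length protein (n = 203). The lists of the same kind of DNA share a control library.

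The relative ranks of NRF and of its partner were set side by side. For each factor the rank is the best over all its lists with a peak in the region. Ranked within its own list, NRF was among the strongest 25% of peaks in 89 of the 459 YY1 members and YY1 in 199, with both in 50, 10.9%. For SP41 the numbers were 106 for NRF, 115 for SP41 and 30 for both, 7.39% of 406. For GLI they were 43, 70 and 15, 7.18% of 209, and for EGR 41, 34 and 13, 8.28% of 157. These joint shares depend on how often each side is strong, and nothing is read from their size. Across members, the best rank of NRF had a Spearman correlation with that of the partner of 0.14 for YY1, 0.06 for EGR, 0.05 for GLI and 0.05 for SP41. By this best rank, NRF stood above the partner in 29.8% of YY1, 38.8% of GLI, 46.8% of SP41 and 51.6% of EGR members. A factor called in more lists has more chances of a good best rank, and the factors differ in how many lists they have and are called in. These shares are therefore partly built in, how far was not tested, and no factor is read as the stronger from them.

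The strongest NRF peak of both lists on amplified DNA fell in a member with YY1 and EGR, at contig 13038, positions 59802 to 60240. NRF full length had 143-fold enrichment there on amplified DNA, rank 1 of 1439, and 13.04-fold on native DNA, rank 42 of 769. NRF DBD had 34.2-fold on amplified DNA, rank 1 of 501, and 16.9-fold on native DNA, rank 18 of 335. YY1 DBD had 6.09-fold on amplified DNA, rank 5277 of 18619, and 5.32-fold on native DNA, rank 1903 of 13140, and EGR had 3.42-fold on native DNA, rank 10369 of 12855. The summits of EGR and of both NRF constructs on amplified DNA were at the same base, 60099.

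The leading NRF regions of the single partners were as follows. With SP41 alone it was contig 12646, positions 22467 to 22923, where NRF full length had 101.3-fold on amplified and 20.7-fold on native DNA. SP41 was found there on amplified DNA only, with 4.88-fold for the DBD and 5.99-fold for the full length protein. With YY1 alone it was contig 13217, positions 85195 to 85517, with 59.1-fold for NRF full length on amplified and 16.4-fold on native DNA, and 4.86-fold for YY1 DBD on amplified DNA. With GLI alone it was contig 13054, positions 12102 to 12484, with 31.0-fold for NRF full length on amplified and 13.1-fold on native DNA, and 2.25-fold and 2.17-fold for GLI on amplified and native DNA. In these 3 regions NRF was in all 4 of its lists.

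With EGR alone the leading region had NRF on amplified DNA only. At contig 13331, positions 30862 to 31192, NRF DBD had 28.3-fold and NRF full length 76.0-fold on amplified DNA, and neither had a peak on native DNA. EGR was found there on native DNA only, with 4.24-fold and a summit 49 bp from the nearest NRF summit. It is 1 of the 36 EGR members with NRF on amplified and EGR on native DNA only.

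The leading regions with NRF on 1 kind of DNA are given next, and folds on amplified and native DNA come from lists that are not on a common scale. With YY1 alone, contig 13071, positions 44423 to 44645, had 12.6-fold for NRF DBD and 41.2-fold for NRF full length on amplified DNA only. Its YY1 peaks were at 6.49-fold for the DBD on amplified and 7.04-fold for the full length protein on native DNA, so YY1 but not NRF was called there on native DNA. The leading one with NRF on native DNA only, contig 13506, positions 537718 to 538115, had 4.78-fold for NRF DBD and 7.42-fold for full length, rank 190 of 769. With GLI alone, contig 11641, positions 467 to 703, had 19.3-fold for NRF full length and 3.63-fold for GLI on amplified DNA only, and contig 13520, positions 932217 to 932509, had 7.12-fold for NRF full length and 6.10-fold for GLI on native DNA only.

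With SP41 alone, contig 13166, positions 25005 to 25247, had 21.8-fold for NRF full length, 3.92-fold for SP41 DBD and 4.68-fold for SP41 full length, all on amplified DNA only. The leading SP41 region with NRF on native DNA only, contig 11970, positions 6425 to 6618, had an NRF full length peak of 2.09-fold with a pileup of 171 fragments, and SP41 DBD peaks of 2.87-fold on amplified and 2.74-fold on native DNA. With EGR alone the leading region with NRF on native DNA only was contig 13482, positions 329007 to 329156, with 4.51-fold for NRF full length and 3.78-fold for EGR.

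Among the pairs, YY1 with GLI was led by contig 2190, positions 2 to 299, with 55.6-fold for NRF full length, 3.18-fold for GLI and 5.27-fold for YY1 DBD on amplified DNA. NRF had no peak on native DNA there, whereas YY1 DBD had 3.67-fold. YY1 with SP41 was led by contig 11921, positions 6238 to 6600, with 41.1-fold for NRF full length on amplified and 14.8-fold on native DNA. EGR with SP41 was led by contig 13517, positions 123607 to 124064, with 26.5-fold for NRF full length on amplified DNA only, while EGR and SP41 DBD were found on both. GLI with SP41 was led by contig 13405, positions 87125 to 87445, where NRF full length had 29.8-fold on amplified and 21.7-fold on native DNA, rank 2 of 769. There GLI was on native and SP41 on amplified DNA only.

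EGR with GLI, the rarest pair, was led by contig 13437, positions 143792 to 144407, where both partners and both NRF constructs were found on both kinds of DNA. The EGR and GLI summits lay at 144072 to 144100 and the NRF summits at 144276 to 144293, with 176 bp between the nearest. NRF full length had 11.3-fold on amplified and 12.0-fold on native DNA, and EGR 4.10-fold and 13.8-fold.

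YY1 and SP41 have 4 lists each and EGR and GLI fewer, so a member with YY1 and SP41 can be in 12 lists and any other pair in at most 10. The 5 members in the largest number of lists are given for their values, and nothing is read from their partners. Contig 13445, positions 258672 to 259242, and contig 12982, positions 47295 to 47776, were in 12 lists each, that is in all lists of NRF, YY1 and SP41. In the first, NRF full length had 20.7-fold on amplified and 7.99-fold on native DNA, YY1 DBD 10.4-fold and 4.81-fold, and SP41 full length 5.36-fold and 3.15-fold. In the second, NRF full length had 16.7-fold and 8.62-fold, YY1 DBD 13.7-fold and 4.67-fold, and SP41 DBD 8.22-fold and 3.64-fold. In both regions the constructs named had the higher fold on amplified DNA, as had the other SP41 construct. NRF DBD went the other way, with 7.04-fold on amplified and 8.23-fold on native DNA in the first, and 6.62-fold and 8.58-fold in the second. YY1 full length had 5.88-fold and 6.98-fold in the first, and 10.6-fold and 8.87-fold in the second. The lists differ in depth and control. Contig 13511, positions 214206 to 214591, and contig 13508, positions 149570 to 149981, were in 11 lists each. In the region on contig 13508 the YY1 summits lay at 149695 to 149710 and the NRF summits at 149846 to 149851, with the SP41 summits between them at 149804 to 149816. Contig 8205, positions 6 to 490, was in 10 lists, all of NRF, GLI and SP41, with 56.7-fold for NRF full length on amplified and 24.3-fold on native DNA.

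Members that hold the strongest partner peaks are given for their values, and a lower rank of NRF there follows in part from choosing them by the partner. The leading SP41 full length peak on amplified DNA, rank 1 of 12006 with 25.5-fold, lay in a member with EGR at contig 13051, positions 47 to 282, where the best NRF peak had 4.55-fold. GLI ranked 2 on amplified and 2 on native DNA at contig 12882, positions 27907 to 28251, where NRF full length had 1.96-fold on amplified DNA only. The EGR peak of rank 3 on amplified DNA was at contig 5548, positions 1038 to 1270, with SP41, and NRF full length had 10.3-fold there on amplified DNA only. YY1 full length ranked 7 on native DNA at contig 13106, positions 40043 to 40622, with GLI, where the best NRF peak had 3.67-fold. These regions were chosen after their values were seen.

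Members were wider than regions of NRF alone, as the rule makes them, with a median of 279 bp against 174 bp. They ranged from 143 to 1328 bp. The widest, at contig 12587, positions 3770 to 5097, held NRF peaks of 2.48-fold to 2.78-fold and a GLI peak of 2.33-fold, all on amplified DNA. A member was in a median of 4 lists, 236 were in 2 lists and 56 in 8 or more. They lay on 535 contigs, of which 378 carried 1 member. The contig with most, 13522, carried 21. Another NRF region lay within 1000 bp of 59 members, 6.48%, and 10.8% of members began in the first 1000 bp of a contig, against 5.98% of all regions.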

How the data were processed

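The members, lists of groups and tests were chosen with earlier results of these data known. MACS2 2.1.2 was run by the authors on each library by itself, per the file headers, in paired-end mode with a q cutoff of 0.05 and at most 1 duplicate kept, and the larger of treatment and control was down-sampled at random. The submitters' processing notes name MACS2, Bowtie, Bowtie2, BS-Seeker2, fastp and CASAVA 1.8.2 with no role for each. The aligner used for these libraries and the genome build are not stated in labels or headers. The deposited pileup is a signal of coverage in fragments, fold enrichment is a ratio to the local background from the control, and p-values and q-values were written by the authors on a −log10 scale, per the file headers. Weak peaks sit near the cutoff, and random down-sampling can change which of them are called.

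Here peaks were merged when they shared at least 1 bp, and regions were classified by factor and kind of DNA. Groups came from the sample titles. Named regions were, for each partner set, the member with the best NRF rank by −log10 q in its own list, the 5 members in most lists, for each single partner the best ranked with NRF on amplified or native DNA only, and the widest. Planned results on motifs, sequence content and gene starts were not run, since no genome was used here. On simulated lists 1732 of 1732 planted NRF regions were given their planted partners, and all 52356 real regions equalled those of bedtools 2.31.1. Computation used Python 3.11.15, numpy 2.4.6, pandas 2.3.3, scipy 1.17.1 and matplotlib 3.10.9. Alternatives were other thresholds, stricter overlap, equal lists and lists left out.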

Additional observations from a re-analysis of the deposited data

Results flagged for a closer look

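The constructs went different ways between the kinds of DNA within the members. The log2 ratio of members with an amplified to members with a native peak was -0.80 for EGR, with 84 against 146, and -0.68 for YY1 full length, with 98 against 157. It was above 0 for the other constructs, between 0.16 for GLI and 0.75 for NRF full length. The whole lists of EGR and YY1 full length went the same way as their members. Their log2 ratios of peaks were -1.02 for EGR, with 6336 against 12855, and -1.50 for YY1 full length, with 1606 against 4528. The direction of these constructs is therefore not particular to members. With 1 library each, these differences were not tested.

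GLI was the construct whose direction in members, 135 on amplified and 121 on native DNA with a log2 ratio of 0.16, was opposite to that of its whole lists, with 4837 and 8828 peaks and a log2 ratio of -0.87. The ratio in members moved with the kind of DNA of NRF. GLI was on amplified DNA in 104 and on native DNA in 51 members with NRF on amplified DNA only, in 14 and 40 with NRF on native DNA only, and in 17 and 30 with NRF on both. This difference was not tested either.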

How the results depend on the processing

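No paired analysis was possible because each construct and kind of DNA has 1 library. With 7 alternatives in thresholds, overlap and lists, 39 of 62 values stayed within 1.5 times the count or within their interval. With a −log10 q of at least 5 there were 558 members, 292 with YY1, 86 with GLI and 250 with SP41, NRF was on both kinds of DNA in 33.9%, NRF and a partner shared a kind of DNA in 95.3%, and the median summit distance was 22 bp. With at least 5-fold enrichment there were 334 members, 192 with YY1, 90 with EGR, 20 with GLI and 111 with SP41, with NRF on both in 38.0% and a shared kind of DNA in 96.1%. With the strongest 1000 peaks of each list there were 217 members, 98 with YY1, 41 with EGR, 54 with GLI and 68 with SP41, with NRF on amplified DNA only in 41.9% and on both in 34.6%. These alternatives leave fewer peaks by construction. With summits within 100 bp the median distance was 19 bp, which the limit itself shortens. Without both YY1 native lists NRF and a partner shared a kind of DNA in 90.0%. Requiring the same kind of DNA fixes that share, so it is not given.

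Leaving out 1 of the 16 lists at a time gave 543 to 938 members, 272 to 488 with YY1, 83 to 183 with EGR, 119 to 233 with GLI and 247 to 455 with SP41. NRF was on amplified DNA only in 26.7 to 77.2% and on both in 20.1 to 25.5%, a kind of DNA was shared in 85.9 to 94.9%, and the median summit distance was 23 to 27 bp. The count moved by over 1.5 times without NRF full length on amplified DNA (543 members, 272 with YY1, 83 with EGR, 132 with GLI and 247 with SP41), without EGR on native DNA (85 with EGR), without GLI on amplified DNA (119 with GLI) and without GLI on native DNA (135 with GLI). NRF full length on native DNA set the highest share on amplified DNA only. Depth limits weak peaks, so a region not called is not shown to be unbound.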
